A study of Mus musculus with 2 samples.

Results

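The insulin-like growth factor (IGF) axis was described in organoids grown from the mouse pituitary, as 10 genes chosen by symbol: the ligand gene Igf1, the receptor genes Igf1r and Insr, the receptor substrate genes Irs1 and Irs2, and the binding protein genes Igfbp2, Igfbp3, Igfbp4, Igfbp5 and Igfbp7. Rows matched for 9 of the 10 members among 20647 genes. Igf1 had no row among those used here and was not analysed here. The data were 1 RNA-seq library of cystic and 1 of dense organoids. The cystic culture was at passage 2 and came from a GHCre/iDTR mouse, which carries a Cre recombinase under growth hormone gene control together with a diphtheria toxin receptor allele. The dense culture was at passage 4 and came from a -/iDTR mouse, without that Cre. Each label names a male mouse aged 10 weeks, and both cultures were grown in PitOM medium, whose composition is not given in the sources used here. Organoid type, passage, mouse and Cre genotype cannot be told apart, and with 1 library per group no test between conditions was possible.

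IGF ligands bind the receptor tyrosine kinase encoded by Igf1r, and insulin binds the related receptor encoded by Insr. The activated receptors phosphorylate the docking proteins IRS1 and IRS2, which recruit phosphatidylinositol 3-kinase and so switch on AKT and mTOR. Secreted IGF-binding proteins hold the ligands outside the cell, and proteases that cut the binding proteins set them free. IGFBP7 is a related secreted protein with low affinity for IGFs. In the pituitary, IGF1 is known as a feedback signal that restrains growth hormone release.

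The cystic library held 17247431 recovered reads, and the dense library 19258313. All values below are normalized counts, read counts divided by 1 size factor per library, unless a sentence says TPM (a length-corrected level computed here from reads and exonic length and scaled to the same total in each library). In brackets are 95% exact intervals, Poisson for a value and Clopper-Pearson for a fold. Where a library had 0 reads, up to 3 reads remain possible, which equals 3.14 normalized counts in the cystic library and 2.87 in the dense one. Intervals and this floor cover counting error only, and reads amplified by PCR without molecular identifiers are not independent molecules. The epithelial genes Cdh1 (21553 in cystic, 21080 in dense; E-cadherin) and Epcam (28114 and 10446) and the pituitary stem cell gene Sox2 (2790 and 3885) were found in both libraries. Krt8, a simple epithelial keratin gene, had 18383 in the cystic library and 79.3 in the dense one, whereas Trp63, a basal epithelial factor gene, had 60.7 and 16344.

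The receptor genes and Irs1 differed little between the libraries, and Irs2 and the binding protein genes differed more. Igfbp2, Igfbp7 and Irs2 exceeded a 4-fold difference towards the dense library, at 87.4, 11.2 and 6.30 times the cystic value, and Igfbp5 was 44.5-fold higher in cystic organoids. Igf1r, Insr and Irs1 were between 1.08-fold and 1.42-fold higher in cystic organoids, and Igfbp3 was 2.87-fold higher in dense organoids. The counting interval of the Insr fold, from 0.94 to 1.25, included no difference. Of the 9 members, 8 had a mean of at least 50 normalized counts, and 4 of these differed at least 4-fold (log2 ratio of cystic over dense, with a pseudocount of 1, beyond 2 either way). Among all 11279 genes with such a mean, 15.5% did, 7.86% towards the cystic and 7.65% towards the dense library. Igfbp2 and Igfbp5 passed this filter on 1 library each, since Igfbp2 had 46.0 in cystic and Igfbp5 7.65 in dense organoids. Igfbp4 did not pass it. The median log2 ratio of the 8 members was -0.70, beside -0.03 for all genes past the filter, with 4 members higher in each library. In bulk RNA, fewer cells that express a gene and less RNA of it per cell cannot be told apart.

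**Figure D1:**
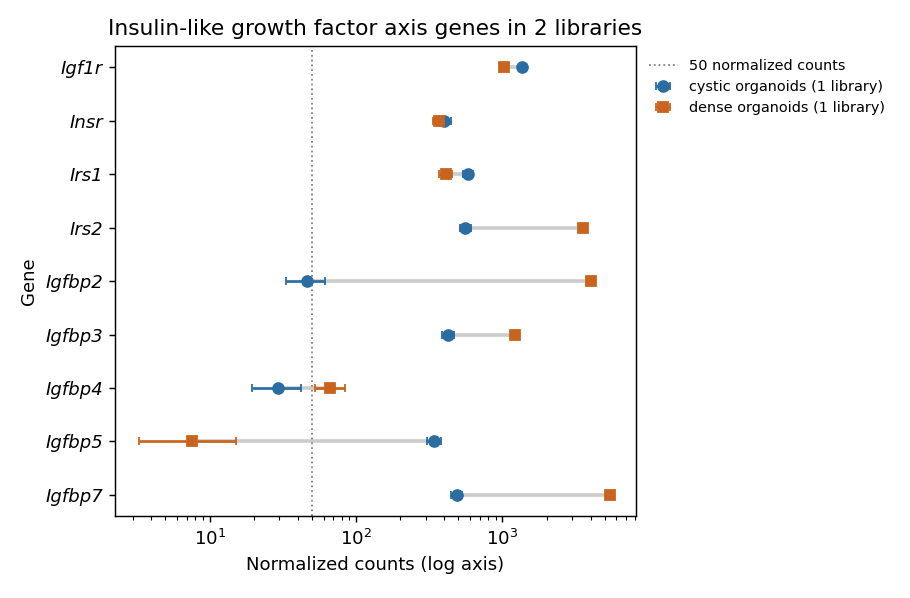
Normalized counts (horizontal log axis) of the 9 members in the cystic (circles) and the dense (squares) library, with 95% Poisson counting intervals. The dotted line marks 50 normalized counts. The symbols of Insr nearly coincide at 401 and 369.9, while those of Igfbp2 lie at 46.0 and 4023.

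**Figure D2:**
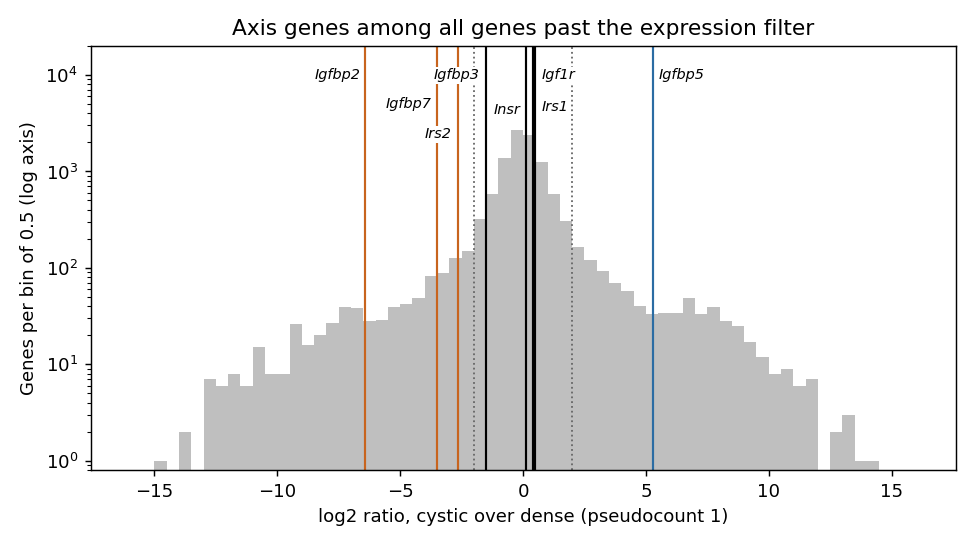
Distribution of the log2 ratio of cystic over dense for the 11279 genes past the filter, in bins of 0.5 with a log vertical axis. Vertical lines mark the 8 members past the filter, orange for those at least 4-fold higher in dense, blue for cystic and black for the others, and dotted lines mark ratios of -2 and 2. Igfbp2 at -6.42 and Igfbp5 at 5.30 lie in opposite tails.

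The sequences before the transcription starts of the members that differed most are shown because these genes were high in opposite libraries and because Igfbp2 and Igfbp5 are neighbours on chromosome 1, with no other protein-coding gene annotated between them in RefSeq. Irs1 is shown as the substrate gene that did not differ 4-fold. The windows are the 250 bases before the start, 5′ to 3′ on the gene's own strand, from RefSeq (build GRCm38.p6, not the mm9 build named for the counts). They are chr1:72824230-72824479 (plus strand) for Igfbp2, chr1:72874866-72875115 (minus strand) for Igfbp5, chr5:77408046-77408295 (minus strand) for Igfbp7, chr8:11008930-11009179 (minus strand) for Irs2 and chr1:82291440-82291689 (minus strand) for Irs1. Capitals mark the GC box GGGCGG and the insulin response core TGTTTTG on either strand.
Igfbp2: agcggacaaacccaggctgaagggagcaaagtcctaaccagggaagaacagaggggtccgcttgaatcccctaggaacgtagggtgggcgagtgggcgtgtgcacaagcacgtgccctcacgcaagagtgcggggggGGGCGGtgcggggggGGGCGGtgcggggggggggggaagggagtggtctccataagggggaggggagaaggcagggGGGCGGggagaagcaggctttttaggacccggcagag
Igfbp5: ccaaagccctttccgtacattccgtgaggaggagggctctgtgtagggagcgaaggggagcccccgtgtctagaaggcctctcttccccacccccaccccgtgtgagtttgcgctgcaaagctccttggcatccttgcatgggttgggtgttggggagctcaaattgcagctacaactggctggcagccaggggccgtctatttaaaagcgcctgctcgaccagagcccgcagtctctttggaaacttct
Igfbp7: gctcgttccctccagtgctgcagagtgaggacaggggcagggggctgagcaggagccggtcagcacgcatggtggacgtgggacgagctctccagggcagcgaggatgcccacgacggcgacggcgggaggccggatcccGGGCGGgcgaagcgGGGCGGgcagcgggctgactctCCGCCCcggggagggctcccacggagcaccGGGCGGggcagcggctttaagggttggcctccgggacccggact
Irs2: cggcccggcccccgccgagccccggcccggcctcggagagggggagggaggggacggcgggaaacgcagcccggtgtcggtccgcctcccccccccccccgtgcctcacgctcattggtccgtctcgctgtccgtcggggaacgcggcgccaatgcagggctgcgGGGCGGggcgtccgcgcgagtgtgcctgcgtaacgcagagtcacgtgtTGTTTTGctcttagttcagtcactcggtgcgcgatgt
Irs1: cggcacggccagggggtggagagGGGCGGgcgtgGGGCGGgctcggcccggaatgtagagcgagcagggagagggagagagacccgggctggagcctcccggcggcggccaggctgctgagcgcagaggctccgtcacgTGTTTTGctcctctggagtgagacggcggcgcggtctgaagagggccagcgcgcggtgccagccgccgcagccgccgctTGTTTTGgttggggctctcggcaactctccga

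Of the members, 9 had at least 1 promoter entry and Insr had none. For Igfbp2, which had 2 entries, the start nearest to the annotated 5′ end of the gene was taken. The Igfbp2 window held 3 GC boxes and the Igfbp7 window 4, and the Igfbp5 window held 0 and was the least rich in G and C of the shown windows, at 58.8% against 67.2% for Igfbp2 and 74.0% for Igfbp7. The median over all windows was 52.4%. The windows of Igfbp3 and Igfbp4 also held 0, that of Irs2 held 1, and those of Igf1r and Irs1 held 2 each. Igfbp3, Igfbp4, Igf1r and Irs1 differed less than 4-fold. Any link between GC boxes and the differences was not tested. A GC box on either strand was found in 32.7% of 32851 mouse promoter windows of the same length. The insulin response core was found 1 time in the Irs2 window, starting at base -37, and 2 times in the Irs1 window, starting at -111 and -32, counted back from the start site. It was found in 5.56% of all windows. The other motifs searched, the TATA box TATAAA (12.4% of windows) and the forkhead core TGTTTAC (3.17%), were in none of the windows shown. These matches are letters in a window, not mapped binding sites.

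Both receptor genes were present at moderate levels in both libraries. Igf1r (ENSMUSG00000005533), which encodes the IGF1 receptor, had 1369 normalized counts (1296 to 1446) in the cystic library and 1029 (968 to 1092) in the dense one. The cystic value was 1.33 times the dense value (1.23 to 1.45), and 61.0% of all genes past the filter had a larger ratio in absolute size. Insr (ENSMUSG00000005534), the insulin receptor gene, had 401 (362 to 443) in the cystic library and 369.9 (334 to 409) in the dense one. Its fold of 1.08 in favour of cystic organoids had an interval from 0.94 to 1.25, so a difference was not detectable at this depth. Per length, Igf1r stood at 15.4 TPM in cystic and 11.1 TPM in dense organoids, and Insr at 5.51 and 4.88 TPM. The Igf1r level was therefore 2.80 times the Insr level in cystic and 2.28 times in dense organoids.

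The substrate genes diverged. Irs1 (ENSMUSG00000055980) had 582 normalized counts (534 to 632) in the cystic library and 409 (371 to 450) in the dense one, a 1.42-fold difference (1.25 to 1.62) in favour of cystic organoids. Irs2 (ENSMUSG00000038894) had 559 (512 to 608) in the cystic library and 3520 (3408 to 3636) in the dense one, 6.30-fold higher in dense organoids (5.75 to 6.91). Per length, the substrates were close in the cystic library, with Irs1 at 12.0 TPM and Irs2 at 16.7 TPM, and far apart in the dense library, at 8.12 and 101 TPM. The Irs2 level was thus 1.39 times the Irs1 level in cystic and 12.4 times in dense organoids. The annotation places the protein-coding gene model Gm9747, which had no row, antisense to 30.9% of the Irs1 exons, and a processed transcript antisense to 2.56% of the Irs2 exons. That transcript had 0 in the cystic library and 0.956 in the dense one. Whether the counting used strand is not given in the sources used here, so antisense reads may be included.

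The binding protein genes gave the widest differences, in both directions. Igfbp2 (ENSMUSG00000039323), whose product binds IGFs and also integrins, had 46.0 normalized counts (33.4 to 61.8) in the cystic library and 4023 (3903 to 4147) in the dense one, which is 87.4-fold higher in dense organoids (65.0 to 120). Igfbp5 (ENSMUSG00000026185), whose product is known to bind extracellular matrix as well as IGFs, had 340.0 (304 to 379) in the cystic library and 7.65 (3.30 to 15.1) in the dense one. The cystic value was 44.5 times the dense value (22.3 to 104), which rested on 8 reads. These adjacent genes were thus high in opposite libraries, and 4.24% and 5.51% of genes past the filter had a larger absolute ratio.

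Igfbp7 (ENSMUSG00000036256) had 485 normalized counts (442 to 532) in the cystic library and 5450 (5310 to 5594) in the dense one, 11.2-fold higher in dense organoids (10.2 to 12.4). Its exons overlap those of the antisense gene Polr2b, an RNA polymerase subunit gene, over 85 bases (7.03% of its length). Polr2b had 2045 in the cystic library and 2061 in the dense one. Igfbp3 (ENSMUSG00000020427), which encodes the main IGF carrier of serum, had 427 (386 to 470) in the cystic library and 1225 (1159 to 1294) in the dense one. The Igfbp3 difference of 2.87-fold (2.57 to 3.22) stayed under the 4-fold threshold. Igfbp4 (ENSMUSG00000017493), whose product inhibits IGF action until it is cut by PAPP-A, was the member with the lowest mean, with 29.3 (19.5 to 42.3) in the cystic library and 66.9 (52.2 to 84.5) in the dense one. Its fold was 2.28 in favour of dense organoids (1.45 to 3.68), on 28 and 70 reads.

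Per length, Igfbp7 led the binding protein genes in both libraries, at 75.9 TPM in cystic and 818 TPM in dense organoids. In the dense library Igfbp2 followed at 395 TPM, then Igfbp3 at 71.0, Igfbp4 at 2.75 and Igfbp5 at 0.23 TPM. In the cystic library Igfbp3 followed at 25.8 TPM, then Igfbp5 at 10.7, Igfbp2 at 4.71, Igfbp6 at 2.67 and Igfbp4 at 1.25 TPM. Counting intervals of neighbours in these orders did not overlap, except those of Igfbp2 and Igfbp6 and of Igfbp6 and Igfbp4 in cystic organoids. Among genes with a read, ranked by TPM, Igfbp7 stood at percentile 99.2 in the dense library and 86.7 in the cystic one. Igfbp2 stood at percentile 97.9 in the dense library and 44.6 in the cystic one, and Igfbp5 at 9.80 in the dense library and 54.6 in the cystic one.

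Summed over the 6 Igfbp genes with a row, the level was 121 TPM in cystic and 1287 TPM in dense organoids, 10.6-fold higher in dense organoids. Igfbp7 held 62.7% of it in cystic and 63.5% in dense organoids. Counted as reads without length correction, its share was 36.1% (Wilson 95% interval 33.6 to 38.8) and 50.6% (49.7 to 51.5). Among the higher-affinity genes Igfbp2 to Igfbp6 the leader differed. Igfbp3 held 57.1% of their summed level in cystic organoids, followed by Igfbp5 with 23.7%, and Igfbp2 held 84.2% in dense organoids. The summed Igfbp level was 5.78 times the summed level of Igf1r and Insr in cystic and 80.5 times in dense organoids.

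**Figure D3:**
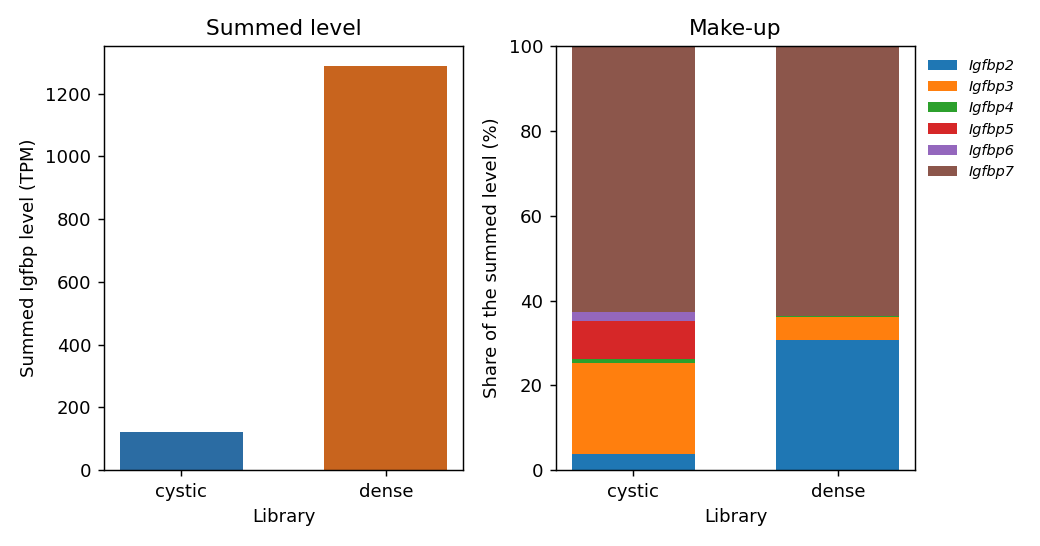
Left, summed level of the 6 Igfbp genes with a row in each library (TPM). Right, share of that sum held by each gene (%). The dense sum of 1287 TPM was made up mainly of Igfbp7 (63.5%) and Igfbp2 (30.7%), and the cystic sum of 121 TPM of Igfbp7 (62.7%), Igfbp3 (21.3%) and Igfbp5 (8.84%).

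Igfbp genes are also expressed in connective tissue and vessels, and marker lists of such cells were set beside them. Of 10 mesenchyme markers, 9 had a row, with a summed 161 normalized counts in the cystic library and 18.2 in the dense one. Most of the cystic sum came from Col3a1 (70.1 in cystic, 0.956 in dense) and Acta2 (46.0 and 0), and the fibroblast receptor gene Pdgfra had 1.05 and 0. Of 10 endothelial markers, 6 had a row, summing to 37.7 in the cystic library and 24.9 in the dense one, with Pecam1 at 1.05 and 4.78 and Emcn at 2.09 and 0. Of 7 pituicyte markers, 2 had a row, summing to 19.9 and 79.3. Of 10 leukocyte markers, 7 had a row, summing to 16156 and 3191. Nearly all of that came from Cd14 (15728 and 63.1) and Cd68 (373 and 3123), while the defining leukocyte gene Ptprc had 1.05 and 0. The mesenchyme sum was higher in the library where Igfbp5 was higher, and its part in that result was not tested.

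For the 3 members with the widest ratio, the genes closest in level were looked up as the smallest distance in log2(value + 1) over the 2 libraries. With 2 libraries this says only that levels were alike. For Igfbp2 they were Lor (49.2 in cystic, 3664 in dense; a cornified envelope protein gene), Ptges (40.8 and 3905; a prostaglandin E synthase gene) and Cdh3 (54.4 and 3866; P-cadherin), at distances of 0.16 to 0.24. For Igfbp5 they were Adcy6 (347 and 7.65; an adenylyl cyclase gene), Tbc1d30 (289.8 and 6.69) and Lgals9 (282 and 6.69; galectin 9), at 0.03 to 0.32. For Igfbp7 they were Slitrk6 (476 and 5363), Tmem154 (537 and 5457) and Ccng2 (568 and 5632; cyclin G2), at 0.04 to 0.23.

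Other genes of the insulin and IGF pathway were taken from a list of 86, of which 76 had a row and 61 passed the filter. At least 4-fold differences were found for 17 of these (27.9%), 8 higher in the cystic library and 9 in the dense one, beside 15.5% of all genes. The median log2 ratio of the 61 genes was -0.17. The other ligands and binding proteins were scarce. Igf2, the fetal IGF ligand gene, had 10.5 in the cystic library and 2.87 in the dense one, Igfbp6 15.7 and 0, and Igfals, the acid-labile partner of circulating IGF complexes, 0 and 8.60. Igf2r, the clearance receptor for IGF2, had 4384 and 2134, 2.06-fold higher in cystic organoids (1.95 to 2.16). Ins1, Ins2, Insrr, Igfbp1 and Igfbpl1 had no row and were not analysed here.

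The genes that act on binding proteins differed by member. Of 9 protease and inhibitor genes, 5 passed the filter, with 2 at least 4-fold higher in the cystic library and 1 in the dense one. Among all genes past the filter, 7.86% and 7.65% were. Pappa, which encodes the protease PAPP-A that cuts IGFBP4, had 551 normalized counts in the dense library and 0 in the cystic one. Set against 3 reads in the cystic library, the dense value was at least 175-fold higher. The membrane proteases Adam9 (12196 in cystic, 1590 in dense) and Adam28 (463 and 25.8) showed a cystic excess of 7.67 times (7.29 to 8.08) and 18.0 times (12.2 to 27.6). Htra1, a secreted serine protease gene, had 3265 in the cystic library and 7424 in the dense one, 2.27-fold higher in dense organoids (2.18 to 2.37).

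Most adaptor genes and most genes of the PI3K, AKT and mTOR group differed less than 4-fold. Of 8 adaptor genes past the filter, 2 were called (25%), beside 15.5% of all genes. Both encode receptor-binding adaptors known as inhibitors of insulin signalling. Grb10 had 636 in the cystic library and 17.2 in the dense one (37.0-fold, 23.2 to 62.8), and Grb14 had 233 and 6.69 (34.9-fold, 16.6 to 87.7). The general adaptor genes Shc1 (1605 and 1585) and Grb2 (1577 and 1681) were near equal. Of 22 genes of the PI3K, AKT and mTOR group, 19 were not called and 3 were (13.6%), a share near the 15.5% of all genes. Pik3r1 and Pik3r3, regulatory subunit genes of PI3K, had 3303 and 2962 in cystic against 518 and 79.3 in dense organoids. Their cystic excess was 6.37 times (5.82 to 6.996) and 37.3 times (30.0 to 47.0), while the third regulatory subunit gene, Pik3r2, had 3267 and 3238. Akt1, with the highest mean normalized count of the group, had 6193 and 5339. Eif4ebp1, a translation repressor controlled by mTOR, had 617 in the cystic library and 3328 in the dense one (5.39-fold, 4.94 to 5.89). Reads of Pik3r3 may be shared with an overlapping gene model.

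Of 9 negative regulator genes past the filter, 3 (33.3%) passed the 4-fold threshold, each towards the dense library. Among all genes past the filter, 7.65% did so in that direction. Trib3, which encodes an AKT-binding pseudokinase, had 194 in the cystic library and 1582 in the dense one (8.17-fold, 7.02 to 9.57). Enpp1, a membrane phosphodiesterase gene whose product inhibits the insulin receptor, had 23.0 and 371 (16.1-fold, 10.5 to 26.0), and Socs1, a cytokine signalling suppressor gene, had 26.2 and 161 (6.14-fold, 4.02 to 9.76). Ide, the insulin-degrading enzyme gene, was not called, with 3561 in the cystic library and 6699 in the dense one.

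The growth hormone input also split. Ghr, the growth hormone receptor gene, had 58.6 in the cystic library and 1260 in the dense one, 21.5-fold higher in dense organoids (16.5 to 28.6). Socs2, a feedback inhibitor gene of that receptor, had 3500 in the cystic library and 439 in the dense one, 7.98-fold higher in cystic organoids (7.23 to 8.82). Jak2, the receptor's kinase gene, had 1248 and 1454. The hormone gene Gh itself had 1603 in the cystic library and 276 in the dense one. The other hormone genes past the filter lay the same way, with Prl at 1192 and 251, Pomc at 1021 and 146, and Cga at 113 and 13.4. The 7 hormone cell markers summed to 3978 and 703, and their part in the other differences was not tested. Some genes are known as targets of FOXO factors, which insulin and IGF signalling keep out of the nucleus. Of 9 such genes past the filter, 2 passed the 4-fold threshold towards the dense library and 1 towards the cystic one. That is 33.3%, beside 15.5% of all genes, and the activity of FOXO factors was not tested. Ccng2 was 9.91-fold (9.08 to 10.8) and Trib1 7.31-fold (6.28 to 8.56) higher in dense organoids, with Trib1 at 195 in the cystic library and 1423 in the dense one. Txnip, a glucose-responsive inhibitor of thioredoxin, had 4028 and 129, 31.2-fold higher in cystic organoids (26.3 to 37.3), and Cited2 had 1725 and 2778. Of the regulators of Igf2, Hmga2, a chromatin protein gene, had 240 in the cystic library and 1159 in the dense one (4.84-fold, 4.19 to 5.59), and Igf2bp2, an RNA-binding protein gene, had 1465 and 2560. The annotation places antisense RNA genes over exons of Txnip and Hmga2, and an antisense gene model of unconfirmed type over exons of Pik3r2.

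**Figure D4:**
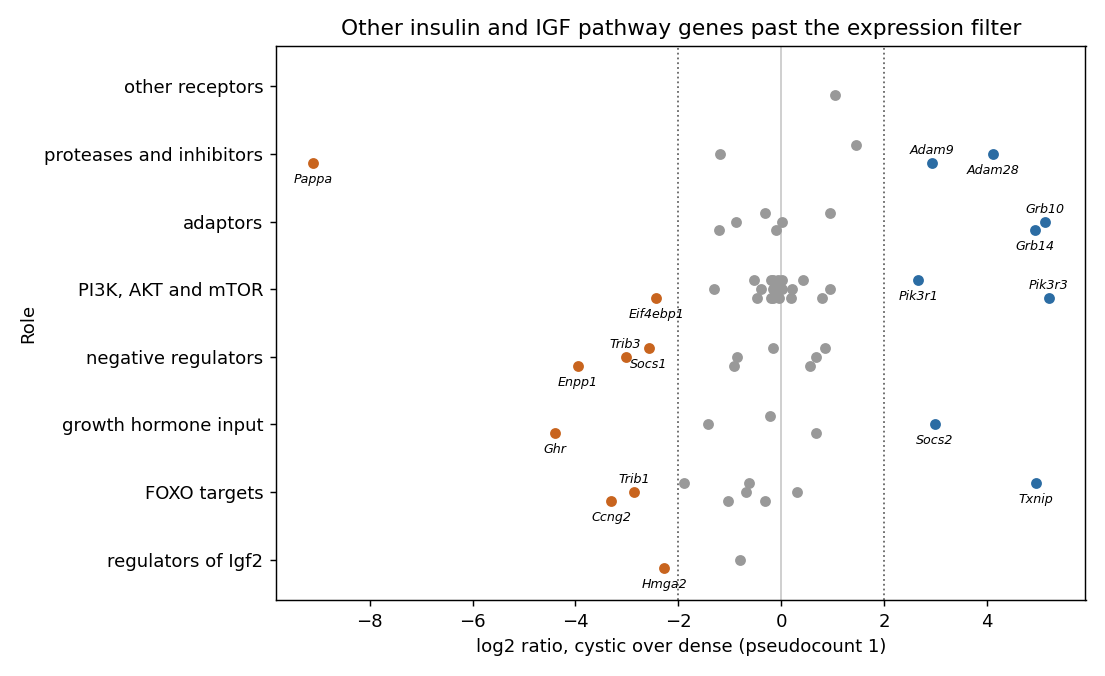
The log2 ratio of cystic over dense (pseudocount 1) for the 61 pathway genes past the filter, by role, each point 1 gene. Named points lie beyond the dotted lines at -2 and 2, in blue the 8 genes higher in cystic and in orange the 9 higher in dense organoids. Pappa lies lowest at -9.11, on 0 reads in the cystic library.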

How the data were processed

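RNA was amplified with Smart-seq v4 and sequenced as 1 library per organoid type, per the labels' protocols. The authors deposited 1 table of normalized signal per gene and library. TopHat, DESeq 1.32.0 and the mouse build mm9 are named per the submitters' processing notes, and the sources used here give no counter, strand setting or annotation. Each column held whole multiples of its smallest value above 0 (100% of values within 0.001 read), so the deposited signal was turned back into reads, with size factors of 0.956 (cystic) and 1.05 (dense). The 2 ERCC spike-in rows were left out (0 and 2 reads). No row was at 0 in both libraries. A count of 0 was taken to allow 3 reads.

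Ratios used a pseudocount of 1 and a mean of at least 50. TPM used reads and merged exon lengths from GENCODE M21 (build GRCm38), matched by identifier for 99.7% of genes. Named were all members, pathway genes at least 4-fold apart and the 2 most abundant of each role, and some markers; not every gene covered is reported. Members and lists were chosen with earlier results of these data known. The ratio rule was tested on simulated data. Alternatives were other pseudocounts, filters, thresholds and scalings (edgeR 4.0.16 in R 4.3.3 for the trimmed mean of M-values), and other lengths. Python 3.11.15 and scipy 1.17.1 were used.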

Additional observations from a re-analysis of the deposited data

How the results depend on the processing

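The 4 called members were the same under pseudocounts of 0.5, 10 and 50, 3 other scalings, a filter of 10 or none, and when the whole 95% counting interval had to lie beyond 4-fold. With a filter of 200, Igfbp5 was left out, since its mean fell below it, and 0 members were called higher in cystic organoids. At an 8-fold threshold Irs2 was no longer called, and at 2-fold Igfbp3 was called as well. The median log2 ratio of the members depended on which members passed. It was -1.16 with a filter of 10, with none, and with the higher of the 2 values at least 50 (chosen after the data were seen), and -1.52 with a filter of 200. Of 54 member ratios under other pseudocounts and scalings, 0 changed sign and 3 left their counting interval. These were Igfbp5 at 4.31 and 2.76 with pseudocounts of 10 and 50, and Igfbp2 at -5.41 with 50. At 2-fold, 15 pathway genes were called towards the dense library and 10 towards the cystic one, beside 31.3% of all genes past the filter. At 8-fold, 5 pathway genes were called in each direction, beside 10.5% of all genes past the filter. The Igfbp7 share was 58.3% in cystic and 55.8% in dense organoids with the longest transcript as length, and 36.1% and 50.6% without length correction. No paired analysis was possible because each group had 1 library. Differences between cultures, mice and passages could not be measured.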

Other observations

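Values of the protein-coding neighbours of the members, taken from RefSeq gene order on GRCm38, differed from those of the members in several places. Beside Igfbp4, which was low in both libraries, Tns4 (a tensin gene) had 38.7 normalized counts in the cystic library and 9142 in the dense one, and Top2a (topoisomerase II alpha) had 1973 and 2933. Beside Irs2, Col4a1 (a basement membrane collagen gene) had 22.0 in the cystic library and 369 in the dense one, the same direction as Irs2, and Myo16 had 1.05 and 0. Beside Igfbp2, on the side away from Igfbp5, the ribosomal protein gene Rpl37a had 1367 and 4259. Beside Igfbp7, Noa1 had 855 and 1038 and Adgrl3, an adhesion receptor gene, had 316 and 834. Of the imprinted genes of the axis, Igf2r had 4384 and 2134 and Grb10 636 and 17.2, while Igf2 (10.5 and 2.87) and H19 (4.18 and 0) were low in both libraries.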
